A study of Mus musculus with 12 samples.

Results

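The genes described here are 10 factors of blood clotting and clot breakdown that the liver makes and secretes: the proteases F2 (prothrombin), F9 and F11, the cofactor F5, the fibrinogen chains Fga, Fgb and Fgg, the inhibitor Serpinc1 (antithrombin), the plasmin precursor Plg and the carboxypeptidase Cpb2. They were taken by name from a table of 10607 genes measured by ribosome profiling, and all 10 were found and passed the filter on low values. The set was put together because footprints of F9 and Cpb2 were lower in Mettl5 knockout livers. As the set was thus chosen by the RPF difference of this same comparison, RPF and translation efficiency (TE) changes of all 10 are given as a description, with no p-value. How many of them passed a threshold is printed only next to the share over all genes, and nothing is read from it. Transcript abundance was not used in the choice and was tested.

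METTL5 places N6-methyladenosine on 18S rRNA, and the study asked whether its loss alters translation in the liver. Livers came from 3 wild-type (WT) mice and 3 knockout (KO) mice without Mettl5. Controls were littermates, and the WT and KO mouse that share a number in the sample titles were taken here as a litter. The KO allele lacks the floxed exon 2, removed in the whole body by the CMV-Cre transgene B6.C-Tg(CMV-cre)1Cgn/J, so the deletion is not limited to hepatocytes. The line was made in ES cells of an F1 hybrid of C57bl/6 and 129S6 and was backcrossed to B6. The study used mice of both sexes from weeks to months of age. Whether the WT littermates carried Cre, and the age of each of these 6 mice, were not given in the sources used here. The lysis buffer of every sample contained cycloheximide, a drug that stops elongating ribosomes. From each lysate, RNA-seq of an undigested part (input) measured transcript abundance, and sequencing of the fragments that ribosomes protect from nuclease (RPF, or footprints) measured how many ribosomes sit on a transcript. Dividing RPF by input gives TE.

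Clotting runs as a chain of proteases that circulate as inactive precursors. F11 activates F9, F9 activates factor X, and factor X with the cofactor F5 turns prothrombin into thrombin, which cuts fibrinogen into fibrin. Antithrombin blocks thrombin and the proteases above it. Plasmin, made from plasminogen, dissolves fibrin, and Cpb2, also called TAFI, slows this by trimming the residues on fibrin to which plasminogen binds. Hepatocytes make nearly all of these proteins, which is why liver disease leads to bleeding.

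Over the genes of the table, input libraries held 2398804 to 5121304 reads and RPF libraries 4623826 to 9184242. The full input count file, which the input test used, held 8326325 to 11825643 counts per library. Mettl5 footprints stood at 47.8 to 58.4 normalized reads in WT and at 5.53 to 9.56 in KO (limma adjusted p 0.00504), and the labels held for each of the 6 mice. All 10 hepatocyte markers examined were present in every input library and summed to 24743 to 31021 CPM (reads of a gene as a share of the library) in WT and 25360 to 26814 in KO. The 6 platelet and megakaryocyte markers summed to 0.492 to 0.702 CPM in WT and 0 to 0.460 in KO, and Gp9, Gp1bb and Treml1 had 0 counts in every library. Stellate cell markers summed to 72.8 to 83.0 CPM in WT and 92.7 to 99.8 in KO, and erythroid markers to 46.8 to 60.5 in WT and 40.8 to 47.2 in KO. The part of these shifts in the values below was not tested. In such bulk samples, fewer hepatocytes and less RNA per hepatocyte cannot be told apart.

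The coding sequences of the 10 genes differ widely in base composition, which the choice of genes did not use. The share of G and C was 40.0% in F9, lower in only 1.05% of the 8986 genes with a coding sequence, and 45.0% in Cpb2. It was 47.0% in Fgg, 47.3% in F5, 47.8% in F11, 48.8% in Fgb, 50.7% in Fga, 53.0% in Plg, 53.1% in Serpinc1 and 55.8% in F2. The median over all genes tested was 52.6%. The windows printed here are the 90 bases, within 1 exon of each coding sequence, whose GC content lies nearest to that of the whole. They are shown because base composition went with the footprint changes described further on, and capitals mark G and C. F9 and Cpb2 had the lowest GC content of the set, and F2 and Serpinc1 the highest.
F9, exon 5, chrX:60016164-60016253 (mm10, plus strand): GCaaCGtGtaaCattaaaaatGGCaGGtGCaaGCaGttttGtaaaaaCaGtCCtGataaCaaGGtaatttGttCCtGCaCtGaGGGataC
Cpb2, exon 3, chr14:75257588-75257677 (mm10, plus strand): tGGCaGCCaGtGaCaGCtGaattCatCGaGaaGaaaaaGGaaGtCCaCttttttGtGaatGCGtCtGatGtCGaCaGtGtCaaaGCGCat
Serpinc1, exon 8, chr1:161002287-161002376 (mm10, plus strand): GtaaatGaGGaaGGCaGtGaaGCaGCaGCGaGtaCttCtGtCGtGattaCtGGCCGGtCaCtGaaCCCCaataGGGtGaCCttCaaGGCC
F2, exon 6, chr2:91632989-91633078 (mm10, minus strand): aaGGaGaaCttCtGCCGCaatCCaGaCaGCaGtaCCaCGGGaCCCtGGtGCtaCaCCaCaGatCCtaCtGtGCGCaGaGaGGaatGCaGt

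The 10 genes span a wide range of footprint density, here normalized RPF reads per kb of coding sequence. In WT livers the fibrinogen chains led, with 27147 ± 6671 for Fgg, 21406 ± 4897 for Fgb and 17482 ± 2257 for Fga (SD, n = 3), and the values of neighbours in this order overlapped. The Fga value uses its longer coding isoform of 2367 bases, and the shorter one has 1671. Serpinc1 followed with 11179 ± 997, then Plg with 7336 ± 1306 and F2 with 6532 ± 637, whose values overlapped. Cpb2 had 1969 ± 418, F5 1006 ± 97.3, F9 742 ± 132 and F11 378 ± 8.68, and none of these 4 overlapped its neighbour. In KO livers the order was the same except that F2 (7229 ± 1250) stood above Plg (6560 ± 998), again with overlapping values. Cpb2 at 1148 ± 268 then overlapped F5 at 885 ± 53.8.

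Summed, the 10 genes drew a similar share of the libraries in both genotypes. They accounted for 2.12% ± 0.130 of input reads in WT and 2.20% ± 0.272 in KO (SD, n = 3), after Lars2 and the genes of 18S and mitochondrial rRNA were left out. Their share of RPF reads was 3.30% ± 0.405 in WT and 3.32% ± 0.397 in KO. Both differences were smaller than the SD within a genotype. The fibrinogen chains made up most of the sum, with 2.17% ± 0.320 of RPF reads in WT and 2.06% ± 0.337 in KO. Shares use the reads of each library as they are, while normalized reads are divided by the authors' library factors. Small changes can therefore differ in direction between these scales.

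Transcript abundance gave no call for any of the 10 genes. Of 10057 genes tested on the input counts with edgeR, 0 passed an adjusted p of 0.05 (0.0% called), 348 had an unadjusted p under 0.05, and DESeq2 called 1. Among the clotting factors 0 of 10 passed with either tool. Their input log2 fold changes, KO minus WT, ran from −0.21 for Cpb2 to 0.12 for F11, with a median of −0.0012 beside −0.00026 over all genes. These p-values measure the spread between the 6 mice. For F9 the 95% confidence interval of the change was −0.37 to 0.24, and for Cpb2 −0.50 to 0.08, so changes within these intervals are not excluded for the transcripts. The deleted gene itself did not pass this test. Mettl5 input stood at 33.1% of the WT level (log2 fold change −1.59, SE 0.46, edgeR adjusted p 0.999, unadjusted p 0.00351). Its values were low, at 15.7 to 38.5 normalized reads in WT. The absence of a call is thus no sign that a transcript was unchanged.

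**Figure D1:**
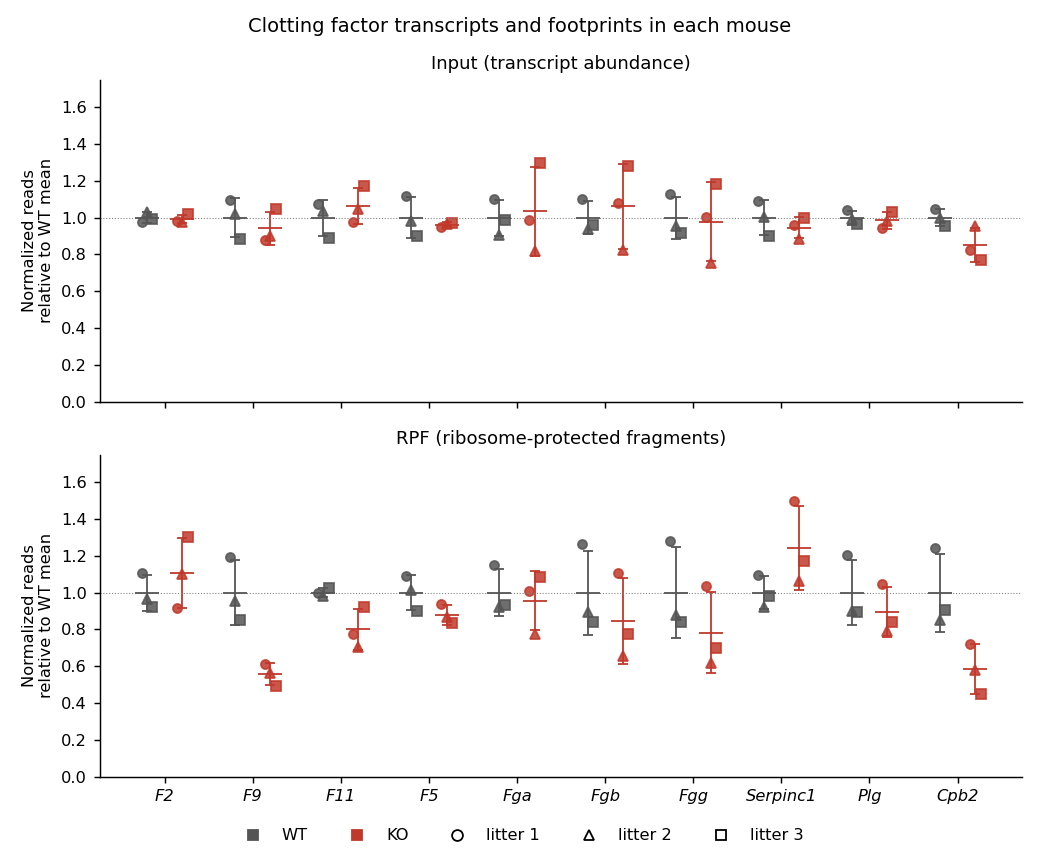
Normalized reads of each clotting factor in every mouse, divided by the WT mean of that assay, for input (top) and RPF (bottom). Symbols mark litters, horizontal bars the means and whiskers the SD of 3 mice. In RPF the KO values of F9, F11 and Cpb2 all lie below the WT values, as for 12.9% of all genes tested, and in input no gene separates.

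The change in footprints was uneven across the set. Of the 10 genes 8 had a lower mean in KO, with log2 fold changes from −0.83 for F9 to −0.07 for Fga, and Serpinc1 (0.30) and F2 (0.14) had a higher one. The median was −0.22, beside −0.03 over the 8994 genes tested. Of the 10, 7 were lower than the littermate in each of 3 litters, as were 23.8% of all genes. In limma 2 of the 10 passed an adjusted p of 0.05, F9 and Cpb2, where 0.489% of all genes did and 0.322% did as lower in KO. F9 and Cpb2 are the reason for the choice of genes, so this count is no evidence about them. With litter as a replicate block the 2 remained, with 3.26% of all genes called. Leaving out KO mouse 2, KO mouse 3, WT mouse 1 or WT mouse 2 brought the count to 0. Over all genes 0 of 8998, 11 of 8968, 28 of 8978 and 9 of 8993 then passed, in that order. Leaving out WT mouse 3 left F9, with 16 of 9005 genes passing. Without KO mouse 1 the 2 remained, with 226 of 8982 genes passing. With RPF columns alone 0 of the 10 passed, and 23 of 8994 genes did. In TE 0 of 10 and 0 of 8994 genes passed in limma (0.0% called), 423 had an unadjusted p under 0.05, and edgeR on whole reads called 0.

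**Figure D2:**
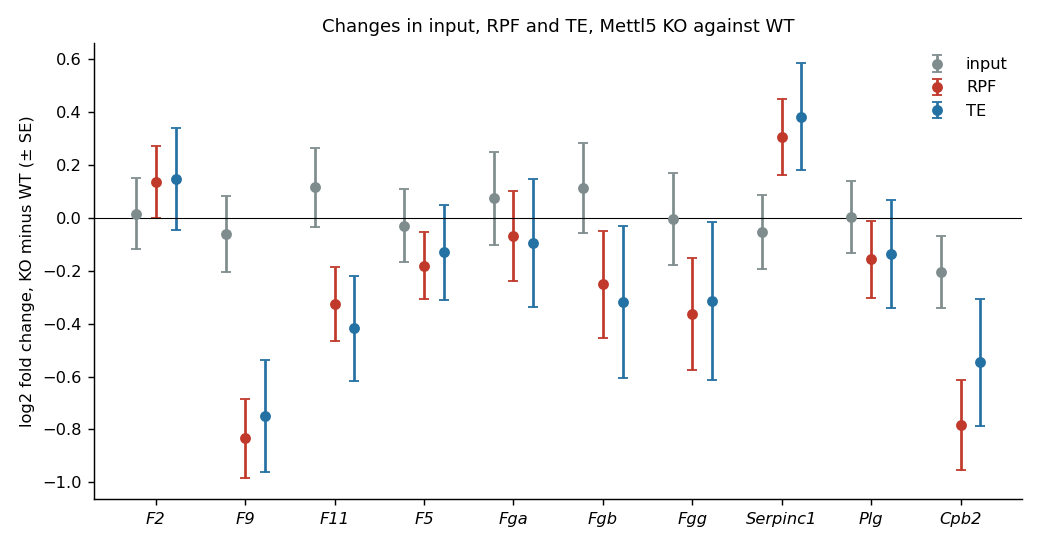
Log2 fold changes, KO minus WT, of input (edgeR), RPF and TE (limma) for each clotting factor, with bars for the SE. Input values lie within 0.21 of 0, F9 and Cpb2 have the lowest RPF values, and Serpinc1 has the highest RPF and TE values.

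Among the proteases, F9 had the lowest footprint level relative to WT. The gene (ENSMUSG00000031138) lies on chromosome X from 59999464 to 60030759 on the plus strand and encodes the vitamin K-dependent protease that is missing in hemophilia B. F9 RPF stood at 1254, 999 and 891 normalized reads in WT mice 1, 2 and 3 and at 639, 593 and 519 in KO mice 1, 2 and 3. All KO values were below all WT values, which was so for 12.9% of genes, and each KO mouse lay below its littermate, at 0.510, 0.593 and 0.582 of its value. The RPF log2 fold change was −0.83 (SE 0.15), or 56.1% of the WT level. Transcripts of F9 did not separate in this way, with input values of 424, 395 and 342 in WT and 341, 348 and 405 in KO, which overlapped (log2 fold change −0.06, SE 0.14, edgeR adjusted p 0.999). In litter 3 the KO mouse had more F9 transcript than its littermate and fewer footprints. The TE of F9 was 2.96, 2.53 and 2.60 in WT mice and 1.88, 1.70 and 1.28 in KO mice (log2 fold change −0.75, SE 0.21). These did not overlap, as for 7.34% of genes in this direction. Xist had 0 counts in all 6 input libraries and Ddx3y 261 to 728, so the X-linked F9 was read from livers of a single sex by expression.

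F11 (ENSMUSG00000031645, chromosome 8 from 45241174 to 45262031, minus strand) encodes the protease that activates F9, and its footprints were lower in KO by a smaller amount. RPF of F11 stood at 705, 694 and 726 in WT mice and at 549, 500.4 and 655 in KO mice. The groups did not overlap, as for 12.9% of genes in this direction, and the log2 fold change was −0.33 (SE 0.14). Its transcripts went the other way in 2 of 3 litters, with a mean of 237 ± 23.2 in WT and 253 ± 23.3 in KO (log2 fold change 0.12, SE 0.15, edgeR adjusted p 0.999). The TE of F11 was thus 3.01 ± 0.374 in WT and 2.24 ± 0.200 in KO, again without overlap, where 7.34% of genes had all KO values below all WT values.

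F2 (ENSMUSG00000027249, chromosome 2 from 91625320 to 91636414, minus strand) encodes prothrombin and had no lower footprint level in KO. RPF of F2 stood at 13437, 11724 and 11173 in WT mice and at 11112, 13347 and 15748 in KO mice. The groups overlapped, with the lowest and the highest value both in KO, and the KO to WT ratio was 0.827, 1.14 and 1.41 in litters 1, 2 and 3. The log2 fold change was 0.14 (SE 0.14), and 0.012 without KO mouse 3. Its transcripts varied little, from 5740 to 6069 normalized reads over the 6 mice (log2 fold change 0.015, SE 0.13, edgeR adjusted p 0.999).

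F5 (ENSMUSG00000026579, chromosome 1 from 164151838 to 164220277, plus strand), the cofactor with the longest coding sequence of the set at 6549 bases, was slightly lower in RPF. Its footprints stood at 7181, 6666 and 5914 in WT mice and at 6179, 5732 and 5484 in KO mice. Each KO mouse lay below its littermate, but the groups overlapped, and the log2 fold change was −0.18 (SE 0.13). Input of F5 was 2685 ± 297 in WT and 2583 ± 36.0 in KO (log2 fold change −0.03, SE 0.14, edgeR adjusted p 0.999).

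The fibrinogen chains, which assemble into a hexamer holding a pair of each chain, lie side by side on chromosome 3: Fgg (ENSMUSG00000033860) from 83007724 to 83015049 on the plus strand, Fga (ENSMUSG00000028001) from 83026076 to 83033627 on the plus strand and Fgb (ENSMUSG00000033831) from 83040141 to 83049863 on the minus strand. The 150 bases before the RefSeq start site (GRCm38.p6) are shown because the transcripts of the chains moved together from mouse to mouse. Capitals mark the letters ATTAAC, the reverse complement of GTTAAT, a core of the sequence bound by the hepatocyte factor HNF1. For Fga the RefSeq start lies inside the gene span given above, so the marked letters fall within that span. Of the 10 genes 9 had a promoter in the RefSeq table, and the letters occurred on either strand in Fga and Fgb among them, beside 3.71% of 32851 promoters of the same length. The C/EBP motif, searched as TTGCGCAA on either strand, was found in 0 of the 9 and in 0.113% of all promoters. The TATA box, searched as TATAAA, was found in 0 of the 9 and in 7.57% of all promoters, and the letters CCAAT in 0 of the 9 and in 24.5%.
Fgg, chr3:83007574-83007723 (plus strand): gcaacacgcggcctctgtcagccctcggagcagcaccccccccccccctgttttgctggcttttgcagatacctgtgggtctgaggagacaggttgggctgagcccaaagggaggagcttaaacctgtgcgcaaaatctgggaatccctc
Fga, chr3:83026003-83026152 (plus strand): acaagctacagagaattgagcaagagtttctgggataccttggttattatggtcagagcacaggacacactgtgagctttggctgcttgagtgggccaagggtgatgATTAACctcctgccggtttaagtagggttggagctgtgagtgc
Fgb, chr3:83049864-83050013 (minus strand): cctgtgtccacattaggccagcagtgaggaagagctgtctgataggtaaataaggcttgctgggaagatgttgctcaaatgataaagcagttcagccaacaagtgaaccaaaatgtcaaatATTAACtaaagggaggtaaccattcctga

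Fibrinogen transcripts varied more between KO mice than between genotypes. Input of Fga stood at 17977, 14794 and 16129 normalized reads in WT mice 1, 2 and 3 and at 16128, 13309.7 and 21139 in KO mice. Input of Fgb stood at 13581, 11534 and 11843 in WT mice and at 13305, 10136 and 15814 in KO mice. Input of Fgg stood at 11690.2, 9874 and 9489 in WT mice and at 10372, 7787 and 12223 in KO mice. For each of the 3 chains KO mouse 2 was the lowest and KO mouse 3 the highest of all 6 mice, and the genotypes overlapped. The input log2 fold changes were 0.07 (SE 0.17) for Fga, 0.11 (SE 0.17) for Fgb and −0.006 (SE 0.17) for Fgg, with edgeR adjusted p-values of 0.999. Without KO mouse 3 those of Fga and Fgb were −0.11 and −0.04.

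Footprints on the chains did not follow the transcripts in equal measure. RPF of Fga stood at 47542, 38069 and 38529.5 in WT mice and at 41715.5, 32164 and 44942 in KO mice (log2 fold change −0.07, SE 0.17, but 0.07 without KO mouse 2 and 0.03 without WT mouse 1). RPF of Fgb stood at 38994, 27644 and 26027 in WT mice and at 34236, 20241.5 and 23982.5 in KO mice (log2 fold change −0.25, SE 0.20, but −0.07 without WT mouse 1, −0.08 without KO mouse 2 and −0.46 without KO mouse 1). RPF of Fgg stood at 46282, 31682 and 30269 in WT mice and at 37292, 22249.8 and 25129 in KO mice (log2 fold change −0.36, SE 0.21, but −0.17 without WT mouse 1, −0.21 without KO mouse 2 and −0.58 without KO mouse 1). Fgb and Fgg were lower than the littermate in each of 3 litters, and Fga in 2, and the groups overlapped for all 3 chains. In KO mouse 3, which had the most transcript of every chain, Fga footprints were 1.17 times those of its littermate while Fgb footprints were 0.921 and Fgg footprints 0.830 times. Over all 12 libraries, centred within assay, Fgb and Fgg correlated with r = 0.976 and Fga with Fgb with r = 0.801, where libraries share mice and litters.

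The balance of Fgg against Fga can be read within each mouse and without any scaling between libraries. In input the ratio of Fgg to Fga reads was 0.635 ± 0.0416 in WT and 0.602 ± 0.0356 in KO (SD, n = 3). In RPF it was 0.864 ± 0.0978 in WT and 0.715 ± 0.169 in KO, and the groups overlapped. The RPF ratio of each KO mouse was 0.918, 0.831 and 0.712 times that of its littermate in litters 1, 2 and 3. The input ratio was also lower in each litter, at 0.989, 0.877 and 0.983 times, so in litter 2 transcripts and footprints differed by similar factors. For Fgb against Fga the RPF values were 1.00, 0.867 and 0.790 and the input values 1.09, 0.977 and 1.02.

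**Figure D3:**
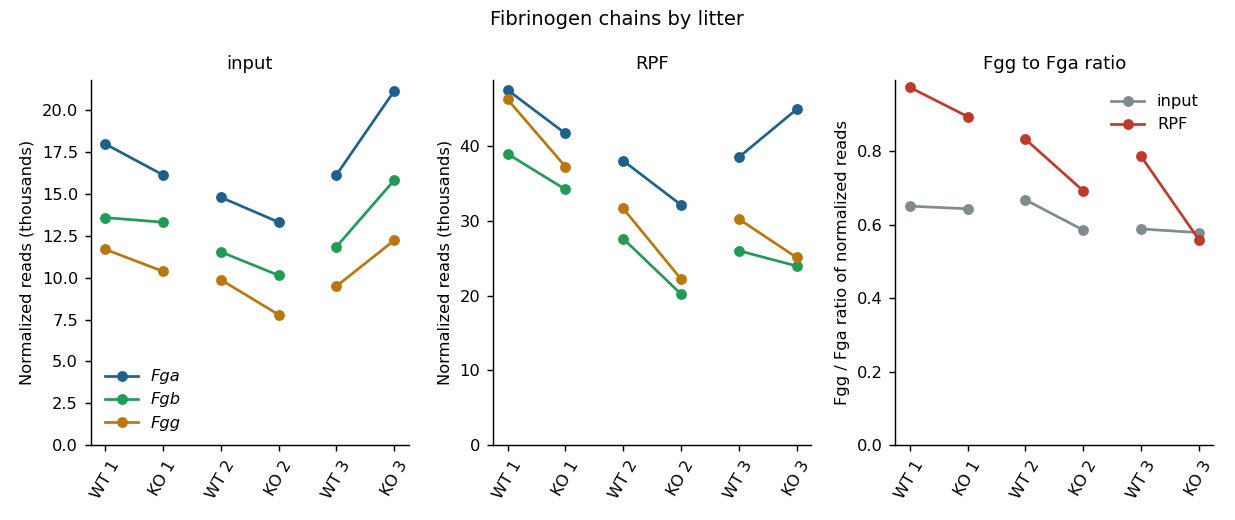
Normalized reads of the 3 fibrinogen chains in input (left) and RPF (middle) and the ratio of Fgg to Fga reads (right) in each mouse, with lines joining WT and KO littermates. The chains move together in input, with KO mouse 2 lowest and KO mouse 3 highest. The ratio of Fgg to Fga is lower in the KO mouse of each litter in RPF and also in input.

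Serpinc1 (ENSMUSG00000026715, chromosome 1 from 160978585 to 161005863, plus strand), which encodes the main inhibitor of thrombin, had the highest footprint change of the set. RPF of Serpinc1 stood at 17113, 14384 and 15288 in WT mice and at 23388, 16564 and 18280.1 in KO mice. Each KO mouse lay above its littermate, by a factor of 1.37 in litter 1, 1.15 in litter 2 and 1.20 in litter 3, although KO mouse 2 was below WT mouse 1. The RPF log2 fold change was 0.30 (SE 0.14), and 0.16 without KO mouse 1. Transcripts of Serpinc1 stood at 4283 ± 405 in WT and 4053 ± 247 in KO (log2 fold change −0.05, SE 0.14, edgeR adjusted p 0.999). The TE was 3.65 ± 0.309 in WT and 4.79 ± 0.788 in KO, and all KO values lay above all WT values, which was so for 6.09% of genes (log2 fold change 0.38, SE 0.20).

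The genes of clot breakdown differed from each other. Plg (ENSMUSG00000059481, chromosome 17 from 12378608 to 12419385, plus strand) encodes plasminogen, and its RPF stood at 21545, 16078 and 15990 in WT mice and at 18749, 14190.2 and 15003 in KO mice. Each KO mouse lay below its littermate, at 0.870, 0.883 and 0.938 times its value, but the groups overlapped (log2 fold change −0.16, SE 0.14, and −0.015 without WT mouse 1). Its transcripts ranged from 9003 to 9960 over all mice (log2 fold change 0.004, SE 0.14, edgeR adjusted p 0.999).

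Cpb2 (ENSMUSG00000021999, chromosome 14 from 75242287 to 75283555, plus strand) encodes the brake on plasmin formation. RPF of Cpb2 stood at 3097, 2117 and 2264 in WT mice and at 1800.3, 1440.3 and 1121 in KO mice. All KO values lay below all WT values, as for 12.9% of genes, and the ratios to the littermates were 0.581, 0.680 and 0.495. The RPF log2 fold change was −0.78 (SE 0.17), or 58.1% of the WT level. Unlike F9, Cpb2 also had the lowest input change of the set. Its transcripts stood at 803, 768 and 734 in WT mice and at 635, 735 and 593 in KO mice, lower in 3 of 3 litters, with KO mouse 2 above WT mouse 3 by a narrow margin. The input log2 fold change was −0.21 (SE 0.14) and did not pass (edgeR adjusted p 0.999, unadjusted p 0.151). The TE was 3.23 ± 0.564 in WT and 2.23 ± 0.528 in KO with overlapping values (log2 fold change −0.55, SE 0.24).

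Across the 12 libraries, the genes whose profile was most like that of F9 after centring within assay were Aadac (r = 0.970), Cfhr2 (r = 0.957) and Ywhae (r = 0.953). For Cpb2 they were Galm (r = 0.968), Ssr3 (r = 0.961) and Rida (r = 0.960). F9 and Cpb2 correlated with r = 0.890. These values describe the same 6 mice and the same genotype difference by which the pair was chosen.

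Footprint changes went with the base composition of the coding sequences printed above. Over 8986 genes the Spearman correlation between the RPF log2 fold change and coding GC content was 0.455, which describes these genes. Genes under 42% GC had a median change of −0.29 (quartiles −0.45 and −0.12, 315 genes), and those above 58% a median of 0.22 (quartiles 0.0011 and 0.44, 1664 genes). For the 10 clotting factors the correlation was 0.939, and for the 8 other than F9 and Cpb2 it was 0.881. Both values are a description only, as the set was chosen by the footprint difference of these same mice. The first value also holds the F9 and Cpb2 changes that led to the choice. For the 28 other genes of coagulation and fibrinolysis tested, described further on, the correlation was 0.411. With GC content at the last base of codons it was 0.378 over all genes, 0.758 over the 10 and 0.619 over the 8 other than F9 and Cpb2. F9, with 33.5% G or C there, was again at the low end, while F2 (67.0%) and Serpinc1 (67.1%) were the highest.

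The trend differed from library to library. With each gene centred on its mean over the 6 RPF libraries, its log2 value changed per 10 percentage points of GC by −0.1695, −0.142 and −0.0800 in WT mice 1, 2 and 3 and −0.0086, 0.125 and 0.275 in KO mice. The difference in this slope, KO minus WT littermate, was 0.161, 0.267 and 0.355 in litters 1, 2 and 3. The ratios of Fgg to Fga and of Fgb to Fga footprints fell in this order of litters, and the KO to WT ratio of F2, the gene with the highest GC content here, increased in it. Of the 10 genes taken singly, only F2 and Plg (0.870, 0.883 and 0.938) had ratios that changed steadily in this order. The ratios of F9 and Cpb2 did not follow it, nor did those of F5 (0.861, 0.860 and 0.927) and F11 (0.779, 0.721 and 0.902). Fga, Fgb and Fgg each had their lowest ratio in litter 2 and their highest in litter 3. Serpinc1, second to F2 in GC content, had its highest ratio in litter 1. A link between slope and ratios was not tested.

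When each library was corrected for GC content with a spline, the footprint changes of the low-GC genes and of F2 became smaller in size. That of F9 went from −0.83 to −0.55 (SE 0.14), that of Cpb2 from −0.78 to −0.59 (SE 0.15), that of Fgg from −0.36 to −0.22 (SE 0.20) and that of F5 from −0.18 to −0.04 (SE 0.12). That of F2, which had the highest GC content of the set, went from 0.14 to 0.06 (SE 0.13). Serpinc1 remained at 0.30 (SE 0.14) and Plg at −0.16 (SE 0.14). Then 0 of the 10 genes passed in limma, as did 0.122% of all genes. With the replicate block and with trends with GC content and length removed, 1 passed, Cpb2 (−0.58, SE 0.13), as did 0.812% of all genes, and F9 stood at −0.54 (SE 0.13).

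**Figure D4:**
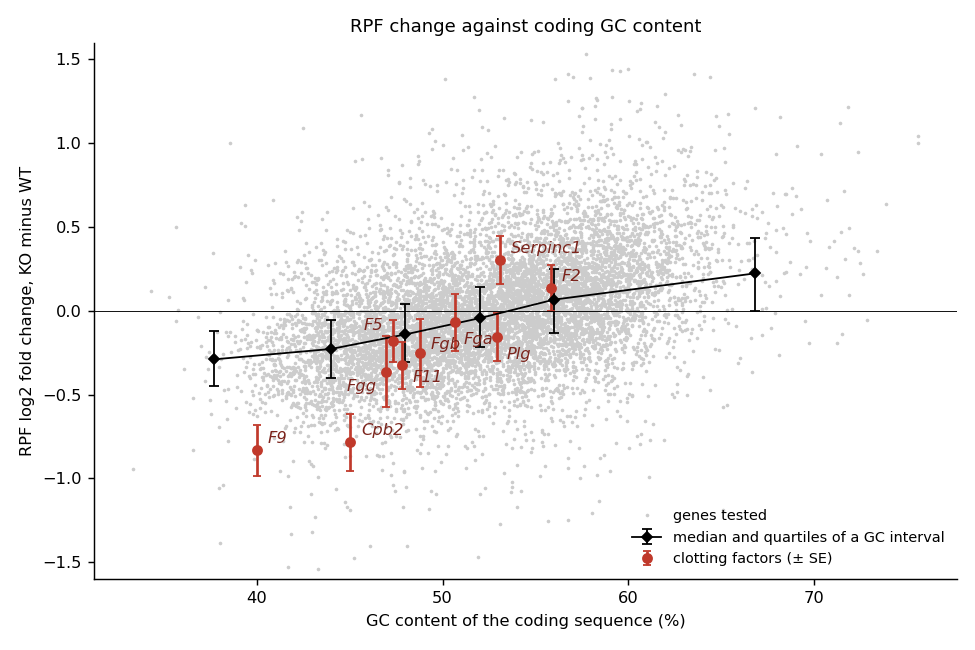
RPF log2 fold change, KO minus WT, against GC content of the coding sequence for 8986 genes (grey, 16 of them outside the vertical axis), with medians and quartiles of GC intervals (black, drawn at the middle of each interval) and the 10 clotting factors with their SE (red). Medians rise from −0.29 under 42% to 0.22 above 58%. F9, Cpb2, Fgg and F11 lie below the quartiles of their intervals, and Serpinc1 lies above those of its own.

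Other genes of coagulation and fibrinolysis were examined from a list of 39, of which 31 were in the table and 28 were tested in RPF and TE. They gave 0 calls of 29 in input (edgeR), 0 of 28 in RPF and 0 of 28 in TE (limma). In RPF 17 had a negative and 11 a positive log2 fold change, with a median of −0.05 and a range from −0.62 to 0.36. Their correlation with GC content was 0.411. The 3 with the smallest RPF p-values were Klkb1, Pros1 and Hrg.

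Klkb1 (ENSMUSG00000109764), the plasma prekallikrein that activates the contact pathway and is a paralog of F11, lies next to it on chromosome 8 from 45266689 to 45294859. Its RPF stood at 2913, 2083 and 2333 in WT mice and at 1706, 1602 and 1420.1 in KO mice, without overlap (so for 12.9% of genes in this direction). The log2 fold change was −0.62 (SE 0.14) with a limma adjusted p of 0.0520, lower in 3 of 3 litters, while its input changed by −0.10 (SE 0.14, edgeR adjusted p 0.999). It passed in limma with the replicate block (adjusted p 0.00901), with a minimum mean of 50 (0.0444) and without KO mouse 1 (0.0300). Over all genes 293 of 8994, 63 of 5038 and 226 of 8982 passed there. It did not pass in any other setting run. The limma adjusted p was 0.123 with RPF columns alone and 0.114 to 0.297 without any 1 of the other mice. With the GC trend removed the change stood at −0.45 (adjusted p 0.227).

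Pros1, which encodes protein S, the cofactor of the anticoagulant protein C, had an RPF of 612, 624 and 554 in WT mice and of 521, 387 and 359 in KO mice, without overlap (so for 12.9% of genes in this direction). The change was −0.51 on the log2 scale (SE 0.16, limma adjusted p 0.148). The limma adjusted p was 0.0424 under the replicate block, 0.0285 without KO mouse 1, 0.190 with RPF columns alone and 0.483 with the GC trend removed. Its input change was −0.20 (SE 0.16, edgeR adjusted p 0.999) and its TE change −0.28 (SE 0.22, limma adjusted p 0.998). Hrg, a plasma glycoprotein that binds heparin and plasminogen, had an RPF of 7848, 6702 and 6256 in WT mice and of 5326, 5218 and 4701 in KO mice, again without overlap. The change was −0.44 on this scale (SE 0.14, limma adjusted p 0.148), with 0.0418 under the replicate block and 0.360 with the GC trend removed. Input of Hrg was lower in 3 of 3 litters, by −0.20 on the log2 scale (SE 0.14, edgeR adjusted p 0.999), and its TE change was −0.22 (SE 0.19, limma adjusted p 0.998). Under the replicate block 3 of the 28 genes thus passed as lower in KO and 0 as higher, where 3.26% of all genes passed and 2.11% did as lower.

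**Figure D5:**
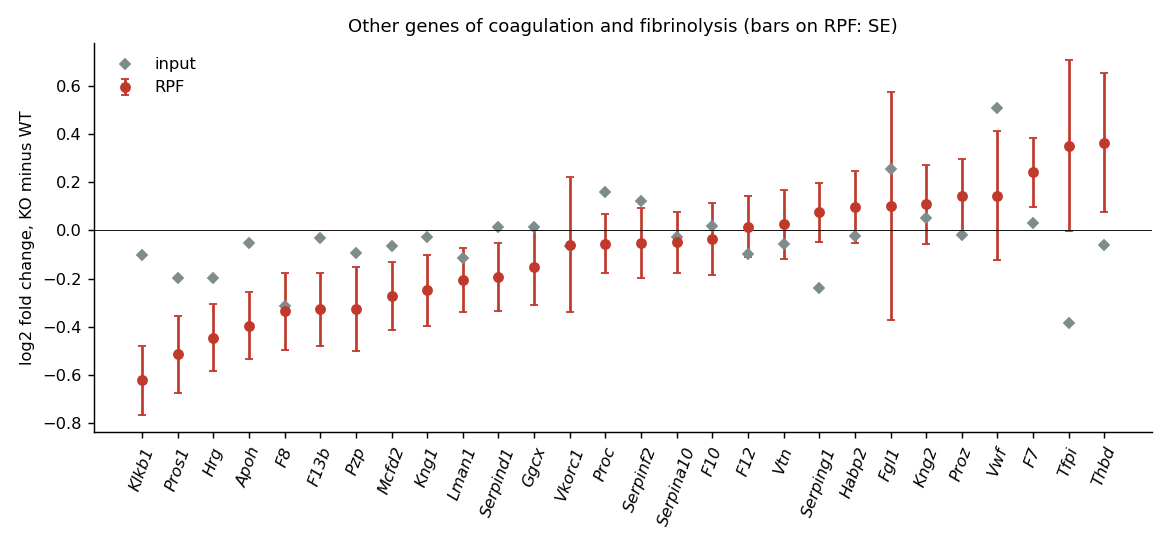
Log2 fold changes, KO minus WT, of RPF (red, with SE) and input (grey) for the 28 other genes of coagulation and fibrinolysis, ordered by RPF. Klkb1, Pros1 and Hrg are at the low end and Thbd and Tfpi, with wide errors, at the high end.

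Of the remaining genes, some are named here for their role, after their values were seen. F8, the cofactor of F9, which is made by endothelial cells, stood at −0.33 in RPF (SE 0.16, limma adjusted p 0.372), and its coding sequence has a GC content of 39.4%. Transcripts of F8 were lower by a similar amount, in 3 of 3 litters (input −0.31, SE 0.18, edgeR adjusted p 0.999). Its TE change was 0.009 (SE 0.22, limma adjusted p 0.999). In RPF F7, the protease that starts clotting with tissue factor, stood at 0.24 (SE 0.14, limma adjusted p 0.479), F10 at −0.04 (SE 0.15, adjusted p 0.938) and Proc, the precursor of protein C, at −0.05 (SE 0.12, adjusted p 0.886). Ggcx, the enzyme of the vitamin K-dependent carboxylation of F2, F7, F9 and F10, stood at −0.15 (SE 0.16, adjusted p 0.720). Vkorc1, which recycles the vitamin K used in it, stood at −0.06 (SE 0.28, adjusted p 0.946). Lman1 and Mcfd2, which form the receptor that carries F5 and F8 out of the endoplasmic reticulum, stood at −0.21 (SE 0.13, adjusted p 0.519) and −0.27 (SE 0.14, adjusted p 0.413).

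For comparison, other secreted liver proteins gave no calls in limma either. The 21 complement genes tested had a median RPF change of −0.29 with 17 negative, and 6 passed as lower under the replicate block, where 2.11% of all genes did. The 15 plasma carriers had a median of −0.0045 and the 13 acute phase genes one of −0.02, beside −0.22 for the 10 clotting factors. Under the block 2 carriers and 1 acute phase gene passed as lower. With the GC trend removed the medians were −0.23 for complement, −0.10 for carriers, −0.02 for the acute phase and −0.16 for the clotting factors.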

How the data were processed

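Ribosome profiling was carried out by the authors on livers of 3 WT and 3 Mettl5 KO mice, which gave 6 input and 6 RPF libraries. Reads were aligned to mm10 with STAR 2.7.3a, and the authors deposited input counts per gene, made with featureCounts (version 1.6.0 in the submitters' processing notes, 2.0.3 in the file header), which also gives the exon length of each gene. RPF reads came from fragments protected from micrococcal nuclease and were mapped by the authors to single locations. The signal in the authors' deposited table is reads divided by 1 factor per library. Whole reads could be recovered for 100% of values in the 12 columns, and edgeR on these reads called 66 genes in RPF. The table lists no gene with fewer than 1 read in any library. Its fold change, p-value and adjusted p-value columns hold the authors' own comparison and were not used. All columns of values were assigned to a sample.

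Input was tested with edgeR 4.0.16 in R 4.3.3 (TMM, filterByExpr, robust quasi-likelihood test). For RPF and TE, limma 3.58.1 was fitted to log2(value + 1) with 4 group means and eBayes (trend and robust options), keeping genes whose mean reached 10 in each assay, so fold changes of low genes are understated. This fit took the libraries of both assays together. RPF and input thus shared an estimate of the spread, and the input and RPF libraries of a mouse were treated as independent. TE contrasts use the input columns of the same table. P-values are two-sided and Benjamini-Hochberg adjusted over all genes tested, and a gene passed at an adjusted p under 0.05. Errors of group means are SD over 3 mice. Coding sequences were the longest per gene in GENCODE vM21 (GRCm38), and promoters came from RefSeq (GRCm38.p6). Scripts were run in Python 3.11.15 and tested on simulated data with known changes.

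Groups came from the labels. WT and KO mice that share a number in the sample titles were taken as littermates. Deviations from the group means correlated between littermates with 0.0816 to 0.127 in input and 0.144 to 0.242 in RPF, and between mice of different litters with −0.117 to 0.0169 and −0.239 to 0.0813. The authors state no litter term, so the replicate block is an alternative. The other alternatives were DESeq2 1.42.0, RLE size factors, other filters, pseudocounts of 0.1 and 5, centred columns, RPF columns alone, removal of spline trends with GC content and length, a block of mouse for TE, and leaving out each mouse.

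Besides the 10 clotting factors, genes of the pathway were named if they passed in any comparison, and otherwise the 3 with the smallest RPF p-value. The 10 genes and all lists were chosen with earlier results of these data known.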

Additional observations from a re-analysis of the deposited data

How the results depend on the processing

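Of 90 alternative counts of clotting factors and other pathway genes that passed, 78 stayed within 1.5 times the value given and 12 did not. All 12 were RPF counts. Those in input and TE were 0 in every setting, and in TE no gene at all passed in any setting. The 78 thus hold many counts with little room to move. The RPF count of 2 clotting factors became 0 with the GC trend removed (11 of 8986 genes passing) or with RPF columns alone (23 of 8994). It became 1 with centred columns (44 of 8994) or with the replicate block and GC and length trends removed (73 of 8986). When a mouse was left out it ranged from 0 to 2, and the count over all genes from 0 to 226. The RPF count of other pathway genes went from 0 to 1 with a minimum mean of 50 (63 of 5038 genes passing). It went to 3 with the replicate block (293 of 8994) and ranged from 0 to 3 without single mice. The cause was not tested. The block changed no other call among the 10 genes and the other pathway genes, and it added RPF calls in other lists and over all genes.

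RPF and TE changes of the 10 genes kept their direction under all alternatives run, except that the RPF change of Fga ranged from −0.17 to 0.07 when a mouse was left out, and was positive without KO mouse 2 or WT mouse 1. Leaving out 1 mouse moved the smaller changes by over 1.5 times, with RPF ranges of 0.012 to 0.26 for F2, −0.28 to −0.015 for Plg, −0.46 to −0.07 for Fgb, −0.58 to −0.17 for Fgg, −0.26 to −0.12 for F5 and 0.16 to 0.41 for Serpinc1, whose TE change was 0.25 without KO mouse 1. The low end in size came without WT mouse 1 for Plg, Fgb, Fgg and F5, without KO mouse 3 for F2 and without KO mouse 1 for Serpinc1. Input changes near 0 took the other sign in some cases. That of F2 was −0.0099 and that of Plg −0.021 in limma on the table, that of Plg was −0.0058 in DESeq2, and that of Fgg was 0.0068 with a minimum mean of 50 and 0.0077 with no filter. Without single mice the input change ranged from −0.0021 to 0.035 for F2, −0.10 to 0.058 for F5, −0.14 to 0.0079 for F9, −0.11 to 0.22 for Fga, −0.037 to 0.27 for Fgb, −0.15 to 0.16 for Fgg, −0.023 to 0.035 for Plg and −0.12 to 0.014 for Serpinc1.

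The design of 3 mice per genotype limits the precision of every change given. Depth limits F11 and F9 most, with as few as 139 and 231 input reads and 685 and 543 RPF reads in a library. Duplicate reads were not removed from RPF by the authors.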
